A study of Mus musculus with 20 samples.

Results

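C3H liver was compared with 129P2/OlaHsd (129P2) liver across all genes that the microarray measures with a probe set of 1 gene symbol. The members are 5 C3H and 5 129P2 samples, 10 of the 20 samples of the series, taken by the strain in their labels. The 10 other samples are NZO/Hl (NZO) and C57/Bl6 (B6) liver. They enter the fit to estimate the spread, and they count in the choice of genes to test and of the brightest probe set. C3H mice are labelled as Jackson Laboratory stock 000658, and 129P2 as 129P2/OlaHsd. All were males aged 6 weeks, fed from weaning at 21 days on a diet that draws 45% of its energy from fat, 20% from protein and 35% from carbohydrate, at 4.73 kcal per gram. No group was on another diet, and no sample carries a knockdown or a transgene by its labels. Of 35556 probe sets, 21789 had 1 symbol. They stand for 19938 genes, of which 14190 were bright enough to be tested.

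Inbred strains are each nearly homozygous but differ from each other at many sites, so a strain comparison of a tissue reads out inherited differences in transcript level together with any difference in physiology. The liver makes cholesterol, bile acids and most plasma proteins, oxidises fatty acids, and clears drugs and steroids through cytochromes P450 and conjugating enzymes. Its resident macrophages, the Kupffer cells, line the sinusoids, and they and other antigen-presenting cells carry major histocompatibility complex (MHC) class II molecules.

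Values are on the log2 scale of robust multi-array average (RMA), where 1 unit means 2-fold, and every difference is C3H minus 129P2. A standard error (SE) and an adjusted p come from limma over all tested genes, and a gene is called where that p is under 0.05. A value is named dim where it falls below percentile 40 of everything measured on that array. Arrays of 1 strain correlated at 0.9751 to 0.988 over all probe sets and arrays of C3H with arrays of 129P2 at 0.968 to 0.986. The interquartile range of an array ran from 2.17 to 2.40 in C3H and from 2.19 to 2.37 in 129P2, with C3H replicate 3 and 129P2 replicate 2 the narrowest. Hepatocyte markers were alike: 0 of 9 were called, and their mean level ran from 13.25 to 13.35 in C3H and from 13.17 to 13.39 in 129P2. The titles carry a number of each animal's own but no replicate number or shared litter, so replicates are numbered here in series order. The p-values set a mean difference against the spread between samples within the 4 strains, as moderated by limma. Sequence differences between the strains beneath the probes were not tested, and they can change a signal without a change in transcript level.

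Of the 14190 tested genes, 714 were called (5.03%), 319 higher in C3H (2.25%) and 395 lower (2.78%). At least a 2-fold difference was seen for 101 called genes (0.712%), 51 higher and 50 lower. For 521 called genes (3.67%) the 5 C3H values and the 5 129P2 values did not overlap. Among all tested genes, called or not, 766 (5.4%) had no overlap. The genes named below for their size were picked from called genes without overlap. In those genes the lack of overlap follows from the choice and is no separate finding. Most called differences were small: 161 higher and 216 lower genes differed by less than 0.5 log2 units, and 8 higher and 7 lower genes by more than 2. The median difference over all tested genes was 0.01, and the median size of a called difference was 0.49.

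**Figure D1:**
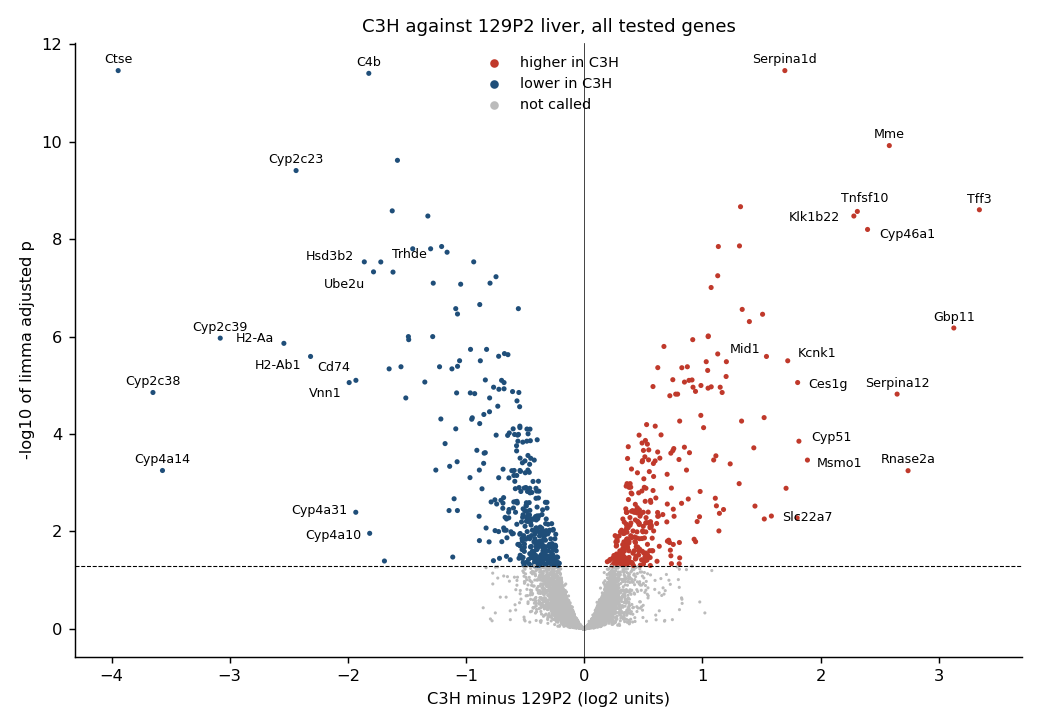
Difference between C3H and 129P2 liver (log2 units, horizontal axis) against the -log10 of limma's adjusted p (vertical axis) for 14190 tested genes, with the 15 largest non-overlapping differences each way named. The 319 red points are higher in C3H, the 395 blue points lower, and the dashed line is an adjusted p of 0.05.

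The 15 genes that were most raised in C3H without overlap were mostly secreted proteins, enzymes and membrane proteins of several families. The largest difference was that of Tff3, a trefoil peptide that protects mucosal surfaces and stands in the list of bile duct cell markers. Tff3 read 11.27, 11.08, 11.82, 11.69 and 10.81 in C3H, against 7.94, 8.24, 7.82, 8.05 and 7.92 in 129P2. All 5 C3H values lay above every 129P2 value, as the choice of these genes required. The difference was 3.34 ± 0.24 (SE), or 10.2-fold (adjusted p = 2.49e-09). Its relatives Tff1 (0.15 ± 0.08, adjusted p = 0.387) and Tff2 (0.11 ± 0.10, adjusted p = 0.667) were not called. Of the 7 tested cholangiocyte markers Tff3 was the one called, and Krt7 (0.04), Sox9 (0.18) and Krt19 (-0.20) were not. The summed linear level of that list ran from 2665 to 4574 in C3H and from 1040 to 1220 in 129P2, with Tff3 in the sum. In bulk liver, fewer cells of a type and less RNA per cell cannot be told apart. The mean of Tff3 was 10.63 in B6 and 8.13 in NZO.

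Gbp11, a guanylate-binding protein of the interferon-inducible GTPase family, read 11.21, 11.54, 10.51, 10.89 and 11.32 in C3H, against 8.17, 7.104, 8.73, 7.50 and 8.33 in 129P2. The groups were far apart, although the 129P2 values spread over more than 1 log2 unit, and the difference was 3.13 ± 0.32 (8.74-fold, adjusted p = 6.65e-07). Gbp11 was the 1 gene called of 10 tested guanylate-binding proteins and immunity-related GTPases (10% called, median difference 0.20). Gbp4 (0.54 ± 0.17, adjusted p = 0.0738, dim in 3 129P2 samples) and Gbp8 (0.42 ± 0.13, adjusted p = 0.0608) did not pass, and Gbp7 (0.16), Gbp9 (0.15), Gbp3 (0.10) and Gbp2b (-0.27) were nearer 0. Of 46 interferon-stimulated genes, 3 were higher and 0 lower (median 0.15): Usp18, which removes the ubiquitin-like ISG15 and dampens the receptor (0.70 ± 0.17, adjusted p = 0.0159), Ifi27 (0.66 ± 0.14, adjusted p = 0.0045) and Rtp4 (0.55 ± 0.15, adjusted p = 0.0248). That share, 6.52%, is near the 5.03% over all genes. Gbp11 levels in the other strains were 8.88 in B6 and 8.92 in NZO, so C3H was the high strain of the 4 by its mean.

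Serpina12, the adipokine vaspin, a serine protease inhibitor, read 9.99, 9.85, 9.78, 9.97 and 9.89 in C3H, against 7.23, 6.63, 7.05, 7.70 and 7.62 in 129P2. The C3H values were tightly placed and the 129P2 values all at least 2 log2 units lower, 1 of them dim, for a difference of 2.65 ± 0.35 (6.27-fold, adjusted p = 1.51e-05). Serpina1d, 1 of the mouse copies of alpha-1-antitrypsin, the plasma inhibitor of neutrophil elastase, averaged 12.97 ± 0.06 in C3H and 11.27 ± 0.16 in 129P2 (SD, n = 5 each). It differed by 1.70 ± 0.08 (3.24-fold, adjusted p = 3.46e-12), with no overlap. Serpina11, a neighbour in the same gene cluster, went the other way at 8.98 ± 0.14 in C3H and 10.28 ± 0.21 in 129P2 (-1.30 ± 0.11, adjusted p = 1.57e-08). Serpina1c (0.19 ± 0.07, adjusted p = 0.158) and Serpina10 (0.08 ± 0.12, adjusted p = 0.822) were not called. The Serpina1 copies are close to each other in sequence, so signal shared between their probes was not separated.

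Membrane peptidases and ion or solute carriers also stood among the highest genes. Mme, neprilysin, a metallopeptidase that cleaves small peptides, read 8.44, 8.94, 8.09, 8.10 and 8.93 in C3H, against 6.15, 6.03, 5.75, 6.10 and 5.55 in 129P2. All 5 129P2 values were dim, so the difference is a bound, at least 3.65-fold higher in C3H (adjusted p = 1.2e-10). B6 was near C3H in Mme with a mean of 8.37 and NZO near 129P2 with 5.79. Kcnk1, a potassium leak channel, was higher by 1.72 ± 0.20 (adjusted p = 3.14e-06), with C3H replicates 3 and 4 at 9.81 and 9.56 and the others at 8.34 to 8.54. Slc22a7, the organic anion transporter OAT2, was higher by 1.58 ± 0.34 (adjusted p = 0.00482), with C3H values of 10.33 to 10.82 above 129P2 values of 8.73 to 9.36. Its relatives Slc22a5 (-0.25) and Slc22a30 (0.08) were not called.

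Rnase2a, a ribonuclease of the eosinophil-associated family, read 7.34, 7.66, 9.96, 8.23 and 7.33 in C3H, against 5.33, 5.33, 5.11, 5.48 and 5.57 in 129P2. C3H replicate 3 was far above the other 4, and all 5 129P2 values were dim, so C3H was at least 2.78-fold higher (adjusted p = 0.000566). Klk1b22, a tissue kallikrein of a cluster of near-identical genes, was also dim in all 129P2 samples and at least 2.39-fold higher in C3H, where it read 7.62 to 8.25 (adjusted p = 3.35e-09). Tnfsf10, the death ligand TRAIL, read 9.05, 8.89, 8.62, 9.58 and 9.78 in C3H, against 6.77, 6.56, 6.76, 7.12 and 7.15 in 129P2, with 1 dim value in 129P2. That is a difference of 2.31 ± 0.17 (4.96-fold, adjusted p = 2.69e-09), and the means of B6 and NZO, 7.29 and 7.37, were on the 129P2 side. Mid1, an X-linked ubiquitin ligase that binds microtubules, averaged 9.70 ± 0.26 in C3H and 8.16 ± 0.05 in 129P2 (1.54 ± 0.17, adjusted p = 2.55e-06), while its relative Mid2 was not called (-0.20).

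Ces1g, a carboxylesterase that hydrolyses lipid esters, read 10.45, 10.53, 10.06, 10.41 and 10.90 in C3H, against 8.49, 8.26, 8.69, 9.31 and 8.57 in 129P2. Only 129P2 replicate 4 came within 1 log2 unit of the lowest C3H value, and the difference was 1.81 ± 0.22 (3.50-fold, adjusted p = 8.76e-06). Of 21 tested carboxylesterases, Ces1g was higher and Bche, butyrylcholinesterase, lower (-0.67 ± 0.14, adjusted p = 0.00513). That was 9.52% called, against 5.03% of all tested genes. Ces1f (-0.73 ± 0.22, adjusted p = 0.0535) and Ces1b (0.41 ± 0.13, adjusted p = 0.0589) missed the threshold, and Ces1d (0.31), Ces1e (0.07) and Ces1c (-0.06) were nearer 0.

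Lower in C3H were genes of the cytochrome P450 subfamilies 2c and 4a, MHC class II, complement C4, steroid dehydrogenase and pantetheinase, but the largest difference was that of a protease. Ctse, cathepsin E, an intracellular aspartic protease, read 6.69, 6.91, 6.82, 6.82 and 6.83 in C3H, against 10.96, 9.73, 11.57, 10.89 and 10.64 in 129P2. The C3H values lay within 0.3 log2 units of each other and none was dim, and the difference of -3.94 ± 0.19 was 15.4-fold (adjusted p = 3.46e-12). B6 had a mean of 6.88 and NZO of 7.87, so 129P2 was the high strain of the 4. The lysosomal cathepsins D and B did not differ past the threshold (Ctsd -0.09 ± 0.10, adjusted p = 0.71, and Ctsb 0.04 ± 0.10, adjusted p = 0.913). Pm20d1, the gene next to Ctse in the annotation and an enzyme that makes N-acyl amino acids, was lower too, with overlap (-0.66 ± 0.15, adjusted p = 0.00944).

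**Figure D2:**
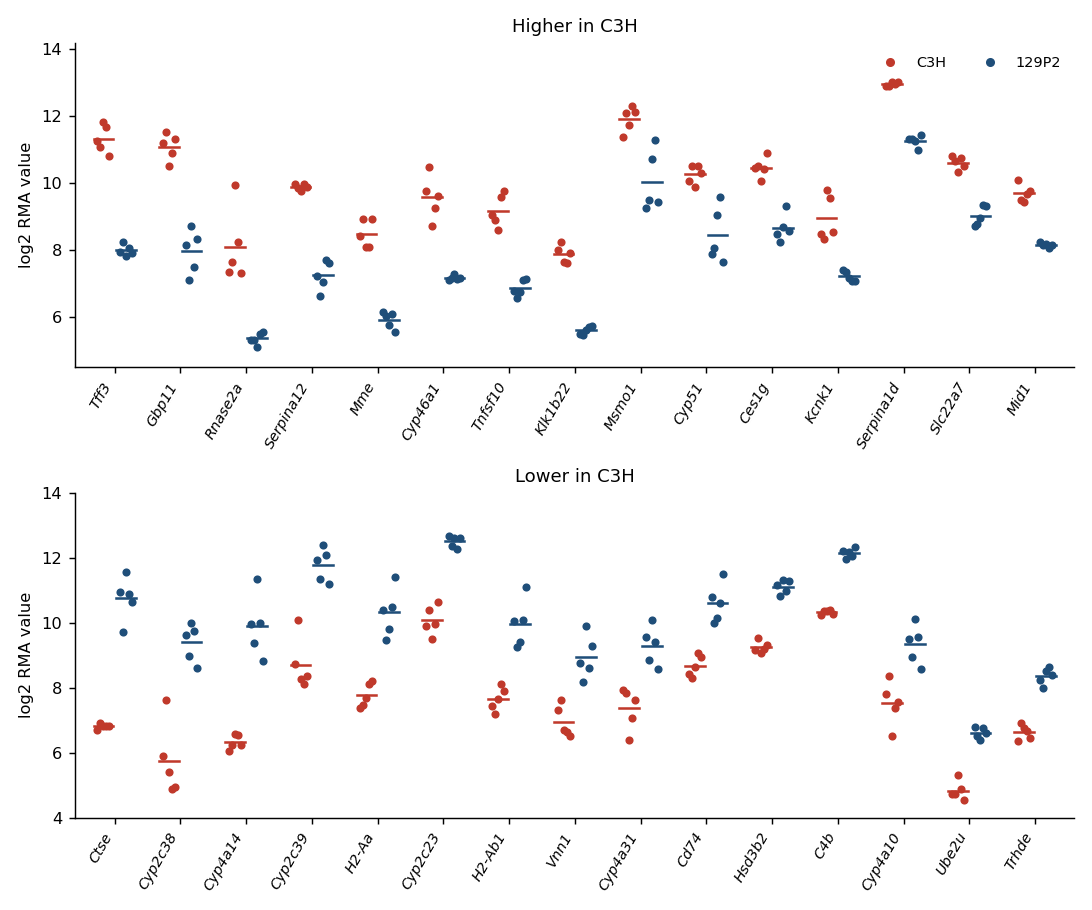
RMA values (log2, vertical axis) of the 15 genes most raised in C3H (top) and the 15 most lowered (bottom) among called genes without overlap, 1 point per sample with a bar at the mean of the 5, C3H in red left of 129P2 in blue. Tff3 reads 10.81 to 11.82 in C3H and 7.82 to 8.24 in 129P2, and Ctse 6.69 to 6.91 in C3H and 9.73 to 11.57 in 129P2.

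Hsd3b2, a 3-beta-hydroxysteroid dehydrogenase, read 9.17, 9.52, 9.06, 9.20 and 9.32 in C3H, against 11.17, 10.81, 11.32, 10.98 and 11.30 in 129P2. Values did not overlap and the difference was -1.86 ± 0.16 (3.63-fold, adjusted p = 2.92e-08). Hsd3b3, its neighbour and close paralog, was higher in C3H, at 11.56 ± 0.10 in C3H and 10.35 ± 0.31 in 129P2 (1.203 ± 0.139, adjusted p = 3.27e-06). Hsd3b5 (0.36 ± 0.25, adjusted p = 0.525) and Hsd3b6 (0.24 ± 0.13, adjusted p = 0.373) were not called. The paralogs share much of their sequence, and signal crossing between their probe sets was not tested. Among 31 steroid dehydrogenases and aldo-keto reductases, 3 were higher (Hsd3b3, Rdh11 and Hsd17b7) and 3 lower (Hsd3b2, Akr1e1 and Hsd17b13). That was 19.4% in all, against 5.03% of all tested genes, with a median of -0.08.

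Trhde, an ectoenzyme that degrades thyrotropin-releasing hormone, averaged 6.63 ± 0.23 in C3H, where 2 values were dim, and 8.36 ± 0.25 in 129P2 (-1.72 ± 0.15, adjusted p = 2.94e-08). With dim values raised to the percentile the difference was -1.64. Ube2u, annotated as a ubiquitin-conjugating enzyme, was called (adjusted p = 4.68e-08) but dim on all 5 C3H arrays and on 2 129P2 arrays, and no fold is given. It passed the filter of 5 arrays only with arrays of the other strains. Akr1e1, an aldo-keto reductase that reduces 1,5-anhydrofructose, averaged 7.28 ± 0.60 in C3H, where 1 value was dim, and 8.93 ± 0.28 in 129P2 (-1.65 ± 0.20, adjusted p = 4.59e-06). Ddah1, which breaks down asymmetric dimethylarginine, an inhibitor of nitric oxide synthases, read 9.69, 9.38, 9.06, 9.67 and 10.27 in C3H, against 11.39, 10.61, 11.30, 11.30 and 11.03 in 129P2. The groups did not overlap (-1.51 ± 0.20, adjusted p = 1.82e-05), and Ddah1 was the 1 gene called of 13 in the list on that pathway.

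The cholesterol synthesis pathway was higher in C3H as a group. It turns acetyl-CoA through mevalonate and squalene into cholesterol, and its genes are known targets of the transcription factor SREBP2, which is released to the nucleus when sterols are scarce. Of 20 tested members 16 were called, all higher (80% against 2.25% of all tested genes called higher), and all 20 differences were above 0, with a median of 0.98 against 0.01 over all tested genes. Among the called members, only Msmo1, Cyp51, Hsd17b7 and Dhcr7 had no overlap of C3H and 129P2 values. This list was chosen with earlier results of these data known. The mean level of the 20 genes was 10.12, 10.56, 10.20, 10.66 and 10.56 in C3H, against 9.03, 9.12, 9.74, 10.18 and 9.12 in 129P2. So 129P2 replicate 4, and less so replicate 3, reached toward or into the C3H range, and 3 of the 129P2 animals were low. The mean was 10.10 in B6 and 10.15 in NZO.

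The largest steps were late ones, in the demethylation of lanosterol. Msmo1, the sterol C4-methyl oxidase, read 11.38, 12.10, 11.73, 12.31 and 12.13 in C3H, against 9.26, 9.50, 10.73, 11.29 and 9.44 in 129P2. The C3H values lay above all 129P2 values, just so for replicate 4 of 129P2 (1.89 ± 0.31, 3.70-fold, adjusted p = 0.000342). Cyp51, the lanosterol 14-alpha-demethylase, read 10.06, 10.52, 9.90, 10.52 and 10.31 in C3H, against 7.90, 8.07, 9.04, 9.59 and 7.64 in 129P2. Values did not overlap there either (1.82 ± 0.28, 3.52-fold, adjusted p = 0.00014). Sqle, squalene epoxidase, a rate-controlling enzyme, read 8.92, 9.82, 9.54, 9.95 and 9.52 in C3H, against 7.07, 7.30, 8.38, 9.27 and 7.200 in 129P2. Here 129P2 replicate 4 overlapped with C3H (1.71 ± 0.32, adjusted p = 0.0013).

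Early enzymes were higher too. Hmgcs1, the cytosolic HMG-CoA synthase that makes the substrate of HMG-CoA reductase, read 10.27, 11.30, 10.38, 11.34 and 10.93 in C3H, against 8.599, 8.70, 9.92, 10.56 and 8.85 in 129P2. Replicate 4 of 129P2 again lay within the C3H range (1.52 ± 0.33, adjusted p = 0.00554). The kinases and decarboxylase of the mevalonate branch differed less, with Mvd at 0.82 ± 0.16 (adjusted p = 0.00264), Pmvk at 0.76 ± 0.16 (adjusted p = 0.00488) and Mvk at 0.57 ± 0.13 (adjusted p = 0.00745). The isoprenoid enzymes Fdps (1.14 ± 0.24, adjusted p = 0.00425) and Idi1 (1.14 ± 0.26, adjusted p = 0.00975) were about 2.2-fold higher. A dimmer probe set of Idi1 gave 1.15. Fdft1, squalene synthase, differed by 0.98 ± 0.21 (adjusted p = 0.00499), and its other probe set by 1.01.

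In the rest of the sterol ring steps, Nsdhl (1.44 ± 0.29, adjusted p = 0.00301), Lss, which closes the ring (1.12 ± 0.23, adjusted p = 0.00298), Hsd17b7 (1.10 ± 0.18, adjusted p = 0.000341), Dhcr7, which makes cholesterol from its last precursor (0.98 ± 0.19, adjusted p = 0.00151), and Tm7sf2 (0.71 ± 0.18, adjusted p = 0.0151) were higher. Srebf2, the gene of SREBP2, had the smallest called difference, 0.37 ± 0.11 (adjusted p = 0.0399), and lost its call in several alternatives. The 4 not called were Insig1, which retains the SREBP complex (12.03 in C3H and 11.38 in 129P2, 0.65 ± 0.22, adjusted p = 0.0928), Stard4, a sterol transfer protein (0.43 ± 0.14, adjusted p = 0.0846), Sc5d (0.33 ± 0.12, adjusted p = 0.136) and Ebp (0.19 ± 0.09, adjusted p = 0.337). Called members of the pathway numbered 14 to 18 when single animals were left out, 18 without 129P2 replicate 4, and 8 in a test against a fold of 1.2. Replicate 4 of 129P2 also stood apart in clock genes, as given below, and its part in the spread of these genes was not tested.

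**Figure D3:**
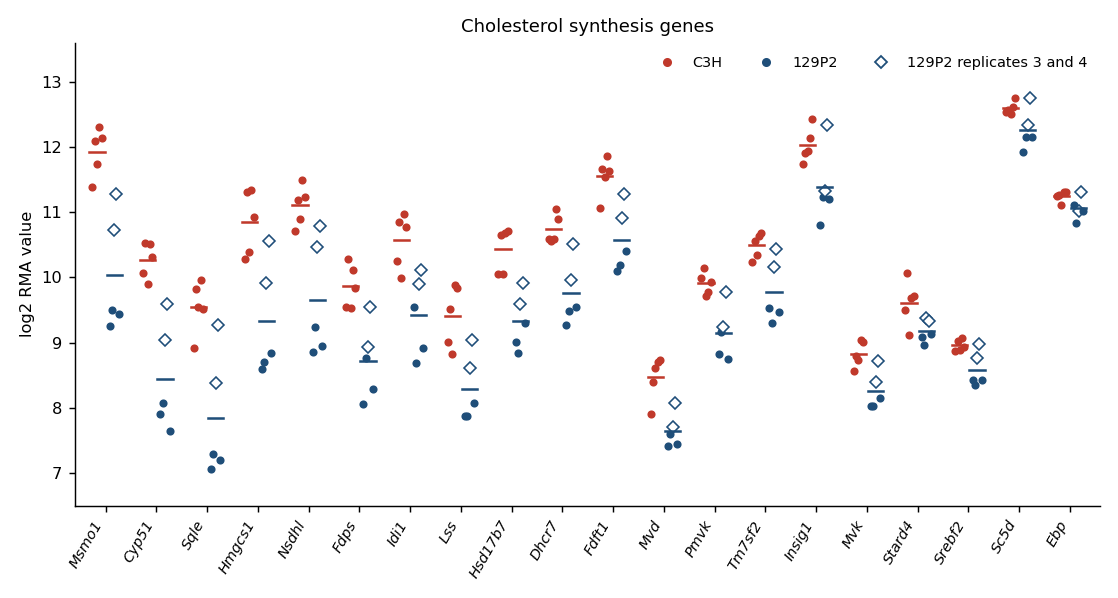
RMA values (log2, vertical axis) of the 20 tested cholesterol synthesis genes in order of their difference, 1 point per sample with a bar at the mean of the 5, C3H in red left of 129P2 in blue. Open diamonds are 129P2 replicates 3 and 4, which lie above the other 3 129P2 samples in most genes, and Msmo1 has the largest difference (1.89).

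Promoter letters are shown for genes that moved together, since the pathway is known for shared regulatory elements. RefSeq promoter windows of build GRCm38.p6, which is the C57BL/6J genome and neither C3H nor 129P2, held a sequence for 16 of the 20 sterol genes. In the 250 bases before the start, both strands searched, the sterol regulatory element TCACNCCAC was found in 1 of them, Hmgcs1, against 1.05% of 32851 promoters. The CCAAT box, a site for the factor NF-Y, was found in 16 of 16 genes, against 33.8% of all promoters. Among the called genes with a window it was 13 of 13. A gene counted where any of its windows held the motif, while the shares over all are of single windows, so the measures differ. A match is a description of letters and no evidence of binding. The 150 bases before the start are shown for Hmgcs1, which has both motifs, and for Cyp51, among the largest differences, with matches of TCACNCCAC or of CCAAT, on either strand, in capitals.
Hmgcs1, chr13:119690201-119690350, plus strand: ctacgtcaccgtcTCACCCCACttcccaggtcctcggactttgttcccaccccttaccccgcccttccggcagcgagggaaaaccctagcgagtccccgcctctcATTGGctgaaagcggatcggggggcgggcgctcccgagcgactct
Cyp51, chr5:4104698-4104847, minus strand: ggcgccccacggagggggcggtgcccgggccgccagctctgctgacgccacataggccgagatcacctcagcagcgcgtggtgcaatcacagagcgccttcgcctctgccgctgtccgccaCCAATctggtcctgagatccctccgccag

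Genes of fatty acid and triglyceride synthesis moved less. Of 30 genes of lipogenesis and triglyceride synthesis, 2 were higher and 0 lower (median 0.28). That share, 6.67%, is near the 5.03% over all tested genes. Elovl6, which elongates palmitate to stearate, read 9.93, 9.995, 10.14, 10.44 and 10.49 in C3H, against 8.74, 8.10, 9.22, 9.58 and 8.81 in 129P2. The groups did not overlap (1.31 ± 0.24, adjusted p = 0.00104). Fads2, the delta-6 desaturase, was higher by 0.56 ± 0.15 (adjusted p = 0.0343), while Elovl5 (0.22), Elovl2 (0.31), Fads1 (0.27) and Dgat2 (-0.09) were not called. Rdh11, a retinol dehydrogenase, was higher by 1.18 ± 0.24 (adjusted p = 0.00355).

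Cyp4a14, Cyp4a10 and Cyp4a31, omega-hydroxylases of fatty acids, and the pantetheinases Vnn1 and Vnn3 were lower in C3H. Such genes are known targets of PPAR-alpha, the fatty acid-sensing nuclear receptor of the liver, whose part here was not tested. Counts for other genes of fatty acid breakdown follow, and they were not used to test the part of that receptor. Of 40 genes of peroxisomal enzymes and biogenesis 5 were higher, among them Ech1 (0.62) and Abcd3 (0.44), and 1 was lower (15% called). Of 28 genes of mitochondrial fatty acid oxidation and ketogenesis 2 were lower and 0 higher. That share, 7.14%, is near the 5.03% over all tested genes. Cyp4a14 read 6.06, 6.23, 6.57, 6.55 and 6.23 in C3H, all dim, against 9.97, 9.38, 11.34, 9.98 and 8.81 in 129P2. It was thus at least 9.61-fold lower in C3H (adjusted p = 0.00056). Cyp4a10 read 7.82, 8.35, 6.52, 7.38 and 7.57 in C3H, against 9.50, 8.95, 10.11, 9.55 and 8.59 in 129P2. C3H replicate 3 was dim there, the groups did not overlap, and the difference was -1.82 ± 0.43 (adjusted p = 0.0109). Cyp4a31 differed likewise (-1.93 ± 0.40, adjusted p = 0.00404). The 3 genes are neighbours and close paralogs, so their probes may share signal. In B6, the highest animal read 10.60 in Cyp4a14 against a lowest value of 6.38, so this gene also varies within a strain.

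Of 10 tested Cyp4 genes 3 were lower and 0 higher (30%, against 2.78% of all genes lower). Cyp4a12a and Cyp4a12b, the omega-hydroxylases of male liver, were alike in both strains (-0.05 and -0.19), as were Cyp4f14 (-0.12) and Cyp4f15 (-0.23). Vnn1, a pantetheinase that returns pantothenate for coenzyme A synthesis, read 7.32, 7.61, 6.71, 6.64 and 6.501 in C3H, against 8.76, 8.19, 9.89, 8.61 and 9.27 in 129P2. Of the C3H values 3 were dim, and the difference was -1.99 ± 0.25 (3.97-fold, adjusted p = 8.78e-06), or -1.97 with dim values raised. Vnn3, its neighbour, differed by -1.62 ± 0.14 (3.07-fold, adjusted p = 4.73e-08), with C3H values of 7.69 to 8.57 under 129P2 values of 9.47 to 9.99. Nudt7, a peroxisomal hydrolase of coenzyme A, was higher by 0.44 ± 0.12 (adjusted p = 0.0357), a call lost in 10 of 23 alternatives. Nudt19, for which the series is named, did not pass (0.30 ± 0.11, adjusted p = 0.144). The other tested genes of the 17 on coenzyme A did not pass either, among them the pantothenate kinase Pank1 (-0.03 ± 0.12, adjusted p = 0.937).

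Acyl-CoA thioesterases release free fatty acids from coenzyme A. Of 18 tested acyl-CoA thioesterases and acyltransferases 5 were called, 4 lower and 1 higher (27.8%, against 5.03% of all tested genes). Lower were the peroxisomal Acot4 (-0.68 ± 0.16, adjusted p = 0.00942), the cytosolic Acot1 (-0.54 ± 0.15, adjusted p = 0.0308), the mitochondrial Acot2 (-0.77 ± 0.22, adjusted p = 0.0398) and Acot11 (-0.68 ± 0.08, adjusted p = 2.23e-06). Acot1 was dim in 4 C3H samples and Acot4 in 2, and with dim values raised they differed by -0.44 and -0.60. Acot1, Acot2 and Acot4 lie side by side and are near-identical in part. Higher was Them7 (0.80 ± 0.13, adjusted p = 0.000333). Among 28 genes of mitochondrial fatty acid oxidation and ketogenesis 7.14% were called, near the 5.03% over all tested genes. The neighbours Acad10 (-0.88 ± 0.10, adjusted p = 3.13e-06) and Acad12 (-0.52 ± 0.13, adjusted p = 0.0156), acyl-CoA dehydrogenases, were lower. The core enzymes Acaa2 (-0.04), Hadh (0.04), Hadha (0.02) and Acat1 (0.09) stood near 0.

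Genes of lipid uptake and storage included 3 lower of 31 (9.68% called, against 5.03% of all tested genes, median 0.03). Hsd17b13, a lipid droplet protein of hepatocytes, read 10.79, 10.96, 10.46, 10.73 and 10.77 in C3H, against 12.37, 12.01, 12.42, 12.45 and 12.37 in 129P2. No value overlapped (-1.58 ± 0.10, 2.99-fold, adjusted p = 2.4e-10). Cd36, the fatty acid translocase, read 7.47, 7.97, 7.38, 7.52 and 7.90 in C3H, against 9.004, 8.395, 8.75, 9.003 and 8.82 in 129P2 (-1.14 ± 0.24, 2.21-fold, adjusted p = 0.00372). Vldlr, a lipoprotein receptor, differed by -0.96 ± 0.11 (adjusted p = 1.83e-06), with 2 C3H values dim. Of 40 peroxisomal genes 5 were higher and 1 lower (15%, against 5.03% of all tested genes). Ech1, an auxiliary enzyme for unsaturated fatty acids, differed by 0.62 ± 0.13 (adjusted p = 0.00408), the transporter Abcd3 by 0.44 ± 0.09 (adjusted p = 0.0036), and Crot, carnitine octanoyltransferase, by -0.49 ± 0.10 (adjusted p = 0.00291). Agxt, Scp2 and Nudt7 were the other members higher, and they lost their call in 11, 16 and 10 of 23 alternatives. Catalase (Cat, 0.07) and Hsd17b4 (-0.03) were not called.

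**Figure D4:**
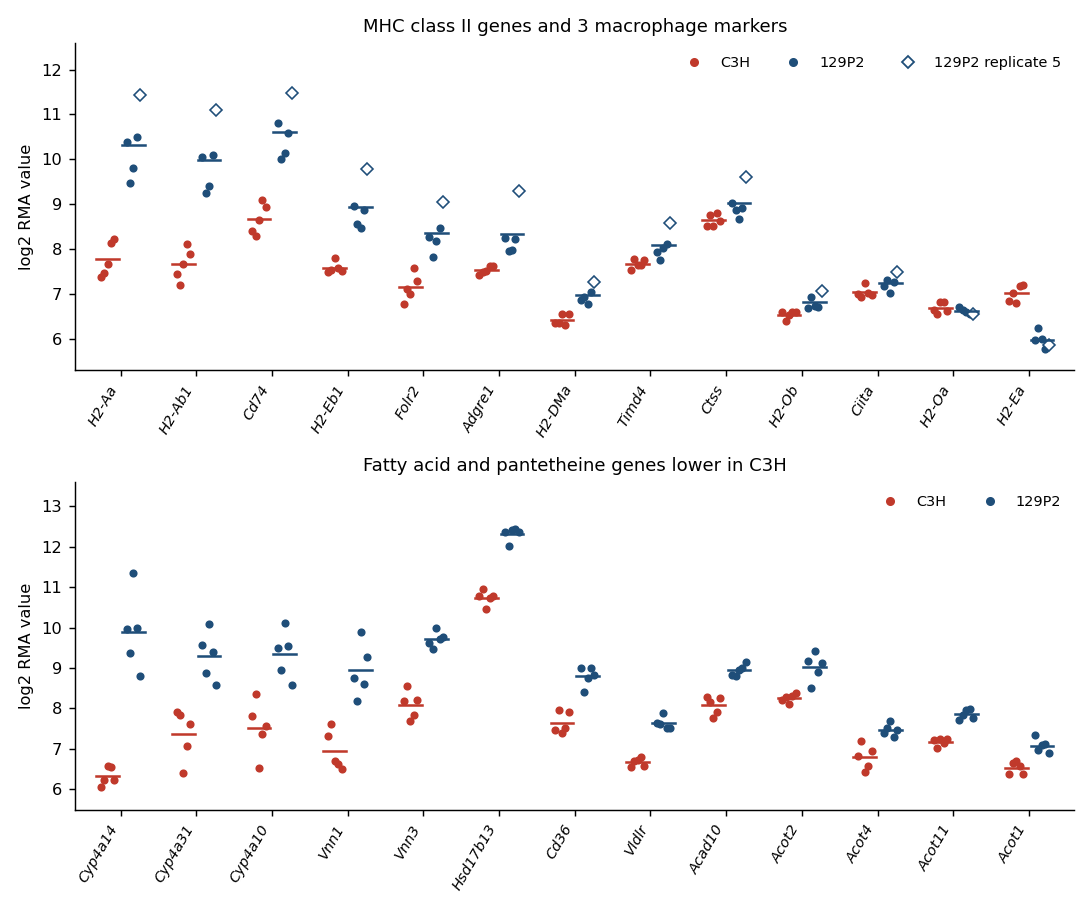
RMA values (log2, vertical axis) of MHC class II genes with 3 macrophage markers (top) and of fatty acid and pantetheine genes lower in C3H (bottom), 1 point per sample with a bar at the mean of the 5, C3H in red left of 129P2 in blue. The open diamond in the upper panel is 129P2 replicate 5, the highest 129P2 sample in H2-Aa (11.42), Cd74 (11.49) and Adgre1 (9.30).

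Most tested MHC class II genes were lower in C3H. Class II molecules present peptides to CD4 T cells, and their alpha and beta chains are built with the invariant chain Cd74. Of 10 tested genes 6 were lower and 1 higher (70% called, against 5.03% of all tested genes, median -0.47). H2-Aa, the alpha chain of I-A, read 7.38, 7.47, 7.68, 8.13 and 8.22 in C3H, against 10.39, 9.48, 9.80, 10.50 and 11.42 in 129P2. H2-Ab1, its beta chain, read 7.43, 7.197, 7.67, 8.11 and 7.90 in C3H, against 10.04, 9.24, 9.41, 10.09 and 11.10 in 129P2. In both genes every 129P2 value was above every C3H value and 129P2 replicate 5 was the highest. The differences were -2.54 ± 0.28 (5.82-fold, adjusted p = 1.37e-06) and -2.32 ± 0.26 (4.98-fold, adjusted p = 2.55e-06).

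The invariant chain differed too. Cd74 read 8.41, 8.29, 8.65, 9.08 and 8.93 in C3H, against 10.81, 10.001, 10.14, 10.60 and 11.49 in 129P2 (-1.93 ± 0.24, 3.82-fold, adjusted p = 7.9e-06). H2-Eb1, the beta chain of I-E, differed by -1.35 ± 0.17 (adjusted p = 8.56e-06), H2-DMa, which helps load peptides, was at least 1.27-fold lower with all C3H values dim (adjusted p = 0.00126), and H2-Ob, which restrains loading, differed by -0.29 ± 0.08 with 4 C3H values dim (adjusted p = 0.0448, and -0.20 with those raised). H2-Ea, the alpha chain of I-E, is known to be silent in several inbred strains. It read 6.84, 7.03, 6.81, 7.18 and 7.21 in C3H, against 5.98, 6.25, 5.99, 5.78 and 5.86 in 129P2, where all values were dim. So it was at least 1.31-fold higher in C3H (adjusted p = 4.95e-06), against the direction of its partner H2-Eb1. Ciita, the master activator of class II genes, was not called (-0.22 ± 0.08, adjusted p = 0.156), nor were Ctss (-0.38) and H2-Oa (0.08).

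MHC genes are among the most variable between strains, and the effect of probe mismatches on these values was not tested. Without 129P2 replicate 5, 5 of the class II genes were lower, and H2-Aa then differed by -2.26 and Cd74 by -1.71. Of 18 Kupffer cell and macrophage markers 3 were lower and 0 higher (16.7%, against 5.03% of all tested genes). Of the 18 differences 4 were above 0, and the median was -0.40. The summed linear level of the 18 ran from 7663 to 9157 in C3H and from 8380 to 16350 in 129P2, so the groups overlapped, and none of the 18 genes was set aside as dim. Adgre1, the surface marker F4/80, read 7.43, 7.48, 7.51, 7.63 and 7.63 in C3H, against 8.25, 7.95, 7.98, 8.23 and 9.30 in 129P2 (-0.81 ± 0.20, adjusted p = 0.0164). Folr2, a folate receptor, differed by -1.21 ± 0.17 (adjusted p = 4.91e-05) and Timd4, a receptor for dying cells, by -0.41 ± 0.12 (adjusted p = 0.0418). Without 129P2 replicate 5 Timd4 was not called (-0.29 ± 0.10, adjusted p = 0.131). Clec4f, the mouse Kupffer cell lectin, was not called (-0.27 ± 0.12, adjusted p = 0.263), and neither were C1qb (-0.17), Cd5l (-0.54) and Slc40a1 (-0.51 ± 0.15, adjusted p = 0.0545). Marco (0.31), Fcna (0.20), C1qa (0.08) and Cd68 (0.01), also not called, were the 4 above 0. The part of macrophage number in the class II difference was not tested.

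The class II promoters carry a Y box, a site bound by NF-Y beside other factors, spelled CTGATTGG here, whose last letters are a CCAAT box on the other strand. RefSeq windows of build GRCm38.p6 were found for 6 of the 10 class II genes, and 3 of the 6 held the motif within 250 bases before the start, against 3.83% of 32851 promoters. Among the called genes with a window it was 2 of 4. Here too a gene counted by any of its windows, and the share over all is of single windows. Their 150 bases before the start are shown, as read from the C57BL/6J genome, with the Y box in capitals.
H2-Aa, chr17:34287824-34287973, minus strand: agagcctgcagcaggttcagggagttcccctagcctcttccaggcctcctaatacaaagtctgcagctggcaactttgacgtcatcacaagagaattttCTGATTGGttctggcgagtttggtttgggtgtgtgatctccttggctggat
H2-Eb1, chr17:34305717-34305866, plus strand: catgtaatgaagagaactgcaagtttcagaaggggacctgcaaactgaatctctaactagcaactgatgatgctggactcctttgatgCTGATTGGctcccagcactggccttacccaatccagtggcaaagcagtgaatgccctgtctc

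MHC class I and antigen processing moved little. Of 24 genes 5 were higher and 1 lower, all by less than 0.6 log2 units (median 0.11). That was 25% called, against 5.03% of all tested genes. Mr1, which presents microbial vitamin metabolites (0.56 ± 0.13, adjusted p = 0.00783), Psmb8, an immunoproteasome subunit (0.45 ± 0.11, adjusted p = 0.0136), H2-Q4 (0.41 ± 0.11, adjusted p = 0.0279), H2-Q5 (0.39 ± 0.08, adjusted p = 0.00518) and the peptide transporter Tap2 (0.27 ± 0.07, adjusted p = 0.0164) were higher, and H2-Bl was lower (-0.40 ± 0.06, adjusted p = 0.000131). B2m, the shared light chain, was not called (-0.13 ± 0.05, adjusted p = 0.211). Cd4, a coreceptor of T cells that some macrophages also carry, read 7.68, 7.13, 7.68, 8.03 and 7.85 in C3H, against 6.38, 6.68, 6.68, 6.80 and 6.77 in 129P2, with 2 of the 129P2 values dim. The groups did not overlap (1.01 ± 0.15, adjusted p = 7.4e-05), while Cd3e (-0.01), Cd8a (-0.01) and Thy1 (-0.01) were level.

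Complement genes split by gene. C4b, complement component 4, made by hepatocytes and encoded in the MHC region, is known as a serum trait that varies among mouse strains. It read 10.25, 10.37, 10.35, 10.39 and 10.27 in C3H, against 12.22, 11.96, 12.18, 12.05 and 12.32 in 129P2. The spread within strains was small and the difference -1.82 ± 0.09 (3.54-fold, adjusted p = 3.94e-12). B6 and NZO had means of 12.07 and 12.12, so C3H was the low strain of the 4. C4a, the sex-limited paralog of high identity, was lower by the same sign (-0.89 ± 0.15, adjusted p = 0.000549), and signal of C4b transcripts on its probes was not separated. Cfhr3 (-0.55 ± 0.13, adjusted p = 0.0114) and F12, coagulation factor XII (-0.54 ± 0.09, adjusted p = 0.00056), were lower too. Higher were C6 (0.62 ± 0.13, adjusted p = 0.00488) and C9 (0.45 ± 0.10, adjusted p = 0.0064), both of the membrane attack complex, and the inhibitor Cfi (0.58 ± 0.07, adjusted p = 1.06e-05). In all, 7 of 47 complement and coagulation genes were called (14.9%, against 5.03% of all tested genes, median 0.04). Plg (0.04), Kng1 (0.01) and Serping1 (0.11) were not called.

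In the Cyp2c family 3 of 10 genes were lower and 0 higher (30%, against 2.78% of all genes lower, median -0.13). Cyp2c39, a retinoic acid hydroxylase in mouse liver, read 8.72, 10.10, 8.27, 8.13 and 8.36 in C3H, against 11.95, 11.35, 12.39, 12.09 and 11.19 in 129P2. C3H replicate 2 was the highest of its group and still lower than every 129P2 value (-3.08 ± 0.33, 8.46-fold, adjusted p = 1.07e-06). Cyp2c38, the neighbouring gene, read 5.89, 7.63, 5.40, 4.88 and 4.95 in C3H, against 9.64, 8.98, 9.99, 9.76 and 8.62 in 129P2. Here 4 C3H values were dim and replicate 2 was again the high one, with a difference of -3.65 ± 0.47 (adjusted p = 1.4e-05), or -2.56 with dim values raised. The means of Cyp2c39 were 7.19 in B6 and 10.11 in NZO, and those of Cyp2c38 7.62 and 6.52.

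Cyp2c23, an arachidonic acid epoxygenase, read 9.91, 10.38, 9.49, 9.95 and 10.63 in C3H, against 12.66, 12.37, 12.62, 12.29 and 12.62 in 129P2. There was no overlap (-2.44 ± 0.16, 5.42-fold, adjusted p = 3.9e-10). B6 was near 129P2 with a mean of 12.58 and NZO near C3H with 9.66. Erlin1, a neighbour that regulates sterol-dependent degradation at the endoplasmic reticulum, went the other way (0.56 ± 0.11, adjusted p = 0.00253). The bright family members Cyp2c70 (0.32 ± 0.13, adjusted p = 0.214), Cyp2c67 (0.08), Cyp2c29 (-0.07) and Cyp2c50 (-0.11) were not called. Cyp3a13 was the 1 gene called of 4 in the Cyp3a family, with C3H values of 8.61 to 8.87 under 129P2 values of 9.95 to 10.37 (-1.45 ± 0.12, 2.73-fold, adjusted p = 1.57e-08). Cyp3a11, the main drug-metabolising member, was not called (-0.31 ± 0.39, adjusted p = 0.769). None of 19 genes of the Cyp1, 2a, 2b, 2d, 2e, 2f, 2j and 2u families was called.

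Glutathione transferases, which conjugate electrophiles, had 5 lower and 2 higher of 19 (36.8%, against 5.03% of all tested genes, median -0.28). The mu class genes Gstm1 (-0.55 ± 0.14, adjusted p = 0.0184), Gstm2 (-0.52 ± 0.15, adjusted p = 0.0357), Gstm3 (-0.75 ± 0.17, adjusted p = 0.00961) and Gstm4 (-0.63 ± 0.18, adjusted p = 0.0381) lie in a row in the annotation and were all lower, and being paralogs they may share signal. Gstm3 also has a dimmer probe set, at -1.23 ± 0.30. Of 23 alternatives, Gstm2 and Gstm4 each lost their call in 11, Gstm1 in 3 and Gstm3 in 1. Gstt2 read 7.43, 8.24, 7.23, 7.51 and 7.93 in C3H, against 8.38, 9.004, 9.22, 8.48 and 8.96 in 129P2 (-1.14 ± 0.19, adjusted p = 0.00046). Its groups did not overlap, though by little. Gstp1 (0.28 ± 0.07, adjusted p = 0.0145) and Mgst1 (0.21 ± 0.06, adjusted p = 0.0397) were slightly higher in C3H, with calls lost in 5 and 14 alternatives. None of 22 NRF2 target genes and none of 22 alcohol and aldehyde dehydrogenases was called. Sult5a1, a sulfotransferase (0.75 ± 0.19, adjusted p = 0.0185), and Cyb5r3, cytochrome b5 reductase (1.05 ± 0.11, adjusted p = 9.99e-07), were higher, and Ugt2b35, a glucuronosyltransferase, lower (-0.49 ± 0.14, adjusted p = 0.0428).

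Several sterol and bile acid transporters were lower in C3H. Of 32 genes of bile acid synthesis and transport 5 were lower and 1 higher (18.8%, against 5.03% of all tested genes, median 0.00). Abcg5 and Abcg8, the partner transporters that together export cholesterol into bile, averaged 10.09 ± 0.08 and 10.15 ± 0.23 in C3H, against 10.94 ± 0.31 and 11.10 ± 0.27 in 129P2. Neither overlapped (-0.85 ± 0.14 and -0.95 ± 0.13, adjusted p = 0.0004 and 4.97e-05). Slco1a4, an organic anion carrier, differed by -1.10 ± 0.21 (adjusted p = 0.00213), Slc51b, of the basolateral bile acid exporter, by -0.47 ± 0.11 (adjusted p = 0.0131), and Slc10a2, the apical sodium-dependent bile acid transporter, by -1.11 ± 0.31 (adjusted p = 0.0335), with overlap.

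Cyp46a1, the cholesterol 24-hydroxylase best known from brain, was the gene raised in that list. It read 9.77, 10.48, 8.73, 9.26 and 9.63 in C3H, against 7.12, 7.18, 7.29, 7.13 and 7.17 in 129P2. The 129P2 values were nearly equal and all below C3H (2.40 ± 0.18, 5.27-fold, adjusted p = 6.31e-09), and B6 and NZO, at 7.02 and 7.18, were like 129P2. Cyp7a1, the rate-limiting enzyme of bile acid synthesis, did not pass (0.30), and averaged 10.39 ± 0.74 in C3H and 10.10 ± 0.71 in 129P2 (SD, n = 5 each). Cyp7b1 (0.83 ± 0.39, adjusted p = 0.3) and the uptake carrier Slc10a1 (0.04) were not called.

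Genes with known sex bias in mouse liver are set by the pattern of growth hormone, and all animals here were males. Of 13 tested female-biased genes 6 were lower in C3H and 0 higher (46.2% against 2.78% of all genes lower, median -0.33). They were Cyp4a14, Cyp4a10, Vldlr and Acot4, given above, with Cyp17a1, a steroid 17-alpha-hydroxylase (-1.26 ± 0.22, adjusted p = 0.000549), and the neurotrophin receptor Ntrk2 (-0.65 ± 0.16, adjusted p = 0.0135, dim in 3 C3H samples and -0.58 with those raised). So 4 of the 6 are also members of the fatty acid lists. Of 20 male-biased genes 3 were higher and 0 lower (15% against 2.25% of all genes higher, median 0.38). They were C6, Nudt7 and Gstp1, while Mup3 (0.09), Cyp4a12a (-0.05) and Ugt2b1 (0.37 ± 0.15, adjusted p = 0.204) were not called. In the growth hormone axis Igfbp3, the main carrier of insulin-like growth factor 1 (IGF-1), averaged 8.44 ± 0.15 in C3H and 9.37 ± 0.24 in 129P2 (-0.93 ± 0.12, adjusted p = 1.48e-05). Igfals, which stabilises that carrier complex, was higher (0.50 ± 0.15, adjusted p = 0.0465). Igf1 (0.05), the receptor Ghr (0.05) and Egfr (0.19) were not called.

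Obp2a, an odorant-binding lipocalin, read 7.46, 7.60, 10.35, 9.34 and 8.84 in C3H, against 6.92, 6.55, 6.62, 7.52 and 6.98 in 129P2. The C3H values spread over nearly 3 log2 units, and the lowest lay below the highest 129P2 value (1.80 ± 0.39, 3.49-fold, adjusted p = 0.00525). It was the 1 gene called of 8 major urinary proteins and lipocalins. Rbp4 (0.01) and Mup21 (0.52 ± 0.20, adjusted p = 0.161) were not called.

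Of 27 genes of endoplasmic reticulum stress 5 were called, all higher in C3H (18.5%, against 5.03% of all tested genes, median 0.19). Hspa5, the chaperone BiP, read 12.31, 12.40, 12.63, 12.59 and 12.50 in C3H, against 12.39, 11.17, 11.73, 11.997 and 11.63 in 129P2, so 129P2 replicate 1 lay within the C3H range (0.70 ± 0.15, adjusted p = 0.00637). Hyou1 (0.72 ± 0.18, adjusted p = 0.0169), Manf (0.52 ± 0.14, adjusted p = 0.0302), Dnajb11 (0.43 ± 0.09, adjusted p = 0.004) and Pdia3 (0.28 ± 0.08, adjusted p = 0.0356) were the others. Of 23 alternatives, Pdia3 lost its call in 11, Manf in 8 and Hyou1 in 4. Hsp90b1 (0.27 ± 0.08, adjusted p = 0.0528) and Herpud1 (0.47 ± 0.16, adjusted p = 0.116) did not pass. Among 24 hepatokines (8.33% called) Serpina12 and Inhbe, the activin beta-E subunit (0.81 ± 0.22, adjusted p = 0.0349), were higher. Of 33 acute phase genes 1 was called, Itih3, of the hyaluronan-binding inhibitors (-0.46 ± 0.09, adjusted p = 0.0013), and of 21 apolipoprotein and lipoprotein genes 1, Apom (-0.49 ± 0.10, adjusted p = 0.00301). Trf (0.01), Ahsg (0.02), Apoc3 (0.06) and Apoa1 (0.17 ± 0.05, adjusted p = 0.0698) were not called.

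In the lists on amino acid catabolism, metallothioneins and iron, and glucose, 10.6%, 3.12% and 5.71% were called, against 5.03% of all tested genes. Alad, an enzyme of heme synthesis that is known to vary in copy number among mouse strains, averaged 11.51 ± 0.12 in C3H and 10.38 ± 0.14 in 129P2 (1.13 ± 0.10, 2.19-fold, adjusted p = 5.63e-08). It was the 1 gene called of 32 on metallothioneins and iron, where hepcidin (Hamp, -0.12 ± 0.39, adjusted p = 0.927) was not. Of 47 genes of the urea cycle and amino acid catabolism, Ddc (0.73 ± 0.19, adjusted p = 0.0242), Gpt2 (0.49 ± 0.12, adjusted p = 0.014) and Bhmt (0.40 ± 0.12, adjusted p = 0.044) were higher, and Pccb (-0.45 ± 0.10, adjusted p = 0.00658) and Amdhd1 (-0.44 ± 0.12, adjusted p = 0.0255) lower. Of 35 glucose and glycogen genes, Pcx, pyruvate carboxylase (-0.52 ± 0.11, adjusted p = 0.00455), and Gckr, the regulator of glucokinase (-0.41 ± 0.11, adjusted p = 0.0308), were lower, and Pck1 (0.36 ± 0.21, adjusted p = 0.435) and Fbp1 (-0.20) were not called. The zonal lists, pericentral and periportal, held 2 lower of 22 (Gstm2 and Gstm3, 9.09%) and 1 lower of 12 (Hsd17b13, 8.33%). Of 26 genes with reported strain differences 3 were higher (Mme, Alad and H2-Ea) and 1 lower (Akr1e1).

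**Figure D5:**
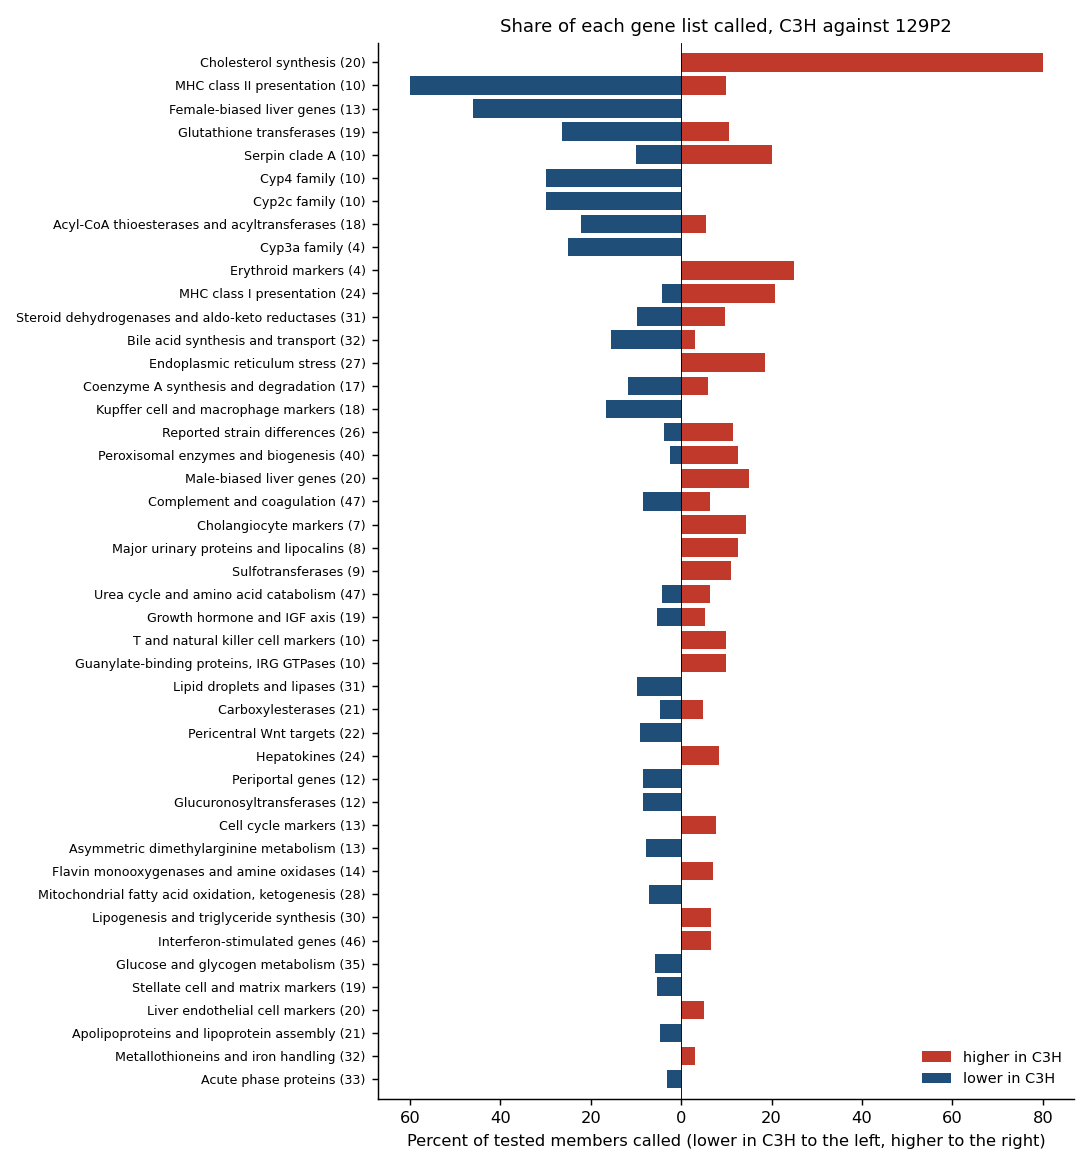
Percent of tested members called (horizontal axis) for each gene list with at least 1 call, with the number of tested members in brackets, bars to the right in red for higher in C3H and to the left in blue for lower. Over all genes 2.25% were called higher and 2.78% lower, and cholesterol synthesis (80%) and MHC class II presentation (60% lower, 10% higher) lie at the top.

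Markers of other liver cells differed in single genes. Clec4g, a sinusoidal endothelial lectin, was the 1 called of 20 endothelial markers (0.43 ± 0.12, adjusted p = 0.0367). Pdgfrb was the 1 of 19 stellate cell and matrix markers (-0.44 ± 0.12, adjusted p = 0.0332). Of 23 alternatives, Clec4g lost its call in 10 and Pdgfrb in 9. Klf1 was the 1 of 4 erythroid markers (0.30 ± 0.08, adjusted p = 0.0349, dim in 4 129P2 samples and 0.19 with those raised, a call lost in 9 of 22 alternatives). Mcm6 was the 1 of 13 cell cycle markers (0.70 ± 0.12, adjusted p = 0.00067, dim in 4 129P2 samples and 0.64 with those raised). Over all tested genes 5.03% were called. No neutrophil, B cell, adipocyte, pancreas or muscle marker was called by limma (of 7, 5, 6, 6 and 9 tested). Muscle markers had a median of 0.38, with mean levels of 7.14 to 8.98 in C3H and 7.08 to 8.19 in 129P2.

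No core clock or clock output gene was called (20 tested, median 0.21), but 1 animal stood apart. In 129P2 replicate 4, Dbp read 7.97 and the other 129P2 samples 9.20 to 10.70, against 9.72 to 10.93 in C3H. Arntl, which runs opposite to Dbp over the day, read 8.83 in replicate 4 and 7.35 to 7.77 in the other 129P2 samples, against 7.11 to 7.54 in C3H. Per1 read 7.21 in replicate 4 and 8.25 to 9.25 in the others of 129P2, against 7.90 to 8.47 in C3H. These 3 genes were chosen after their values were seen, and the labels used here give no time of dissection. Nr1d1 (0.20 ± 0.15, adjusted p = 0.582) and Clock (-0.08) were also not called.

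The 30 genes named for their size had 59 tested neighbours in the gene order. Of these, 7 are themselves among the 30, and of the other 52 neighbours 7 were called (13.5%, against 5.03% of all tested genes), with no test of the difference. Of 6 runs of at least 3 adjacent called genes of the same sign, 4 were H2-Ob, H2-Ab1, H2-Aa and H2-Eb1 (4 genes), Gstm3, Gstm2, Gstm1 and Gstm4 (4 genes), Acot2, Acot1 and Acot4 (3 genes), and Cyp4a14, Cyp4a10 and Cyp4a31 (3 genes), all lower in C3H. Neighbours of opposite sign were Hsd3b2 and Hsd3b3, Cyp2c23 and Erlin1, and Gbp11 with Lrrc8b, a subunit of volume-regulated anion channels (dim in all C3H samples, at least 1.33-fold lower, adjusted p = 0.000102). Families of paralogs lie in such rows, so neighbours are not independent measurements.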

How the data were processed

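Liver RNA of 20 samples was measured on whole-transcript arrays, 1 per sample; RNA had an integrity number above 8 and 150 ng was amplified, per the labels' protocols. The authors deposited log2 values made with Affymetrix Expression Console by RMA, per the submitters' processing notes, which name no versions; the genome build is not given in the sources used here. The values were used as deposited.

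Probe sets took symbols from the platform annotation: 21789 had 1 symbol, 1621 several and 12146 were unnamed here. Entrez identifiers matched 21698 to the GRCm38.p6 annotation, used for names and gene order, and 0 symbols changed. For 999 genes with several probe sets the brightest was taken. Genes entered the test if they exceeded an array's own 40th percentile on 5 or more of 20 arrays, and 5748 genes were set aside. limma 3.58.1 in R 4.3.3 fitted 1 mean per strain over 4 strains, with an intensity trend (16 residual and 6.37 prior degrees of freedom) and Benjamini-Hochberg adjustment over 14190 genes. Where all 5 values of a strain were dim, the fold is the brighter strain's mean minus the dim strain's mean percentile. Arrays have no read depth; their number limits precision. Figures used matplotlib 3.10.9 in Python 3.11.15.

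Named genes are the 15 largest differences each way among called genes without overlap, called members of 57 lists written by hand, up to 4 bright uncalled members of a list, close relatives, called neighbours and Nudt19. Other uncalled members, and the clock genes, were named after their values were seen. Members and lists were chosen with earlier results of these data known. Alternatives were other filters, normalizations, moderation, array weights, only these 10 arrays, other probe set rules, a test against a fold of 1.2, array spread as a covariate, and each animal left out. On simulated data with 14190 genes, 77% of genes changed by 0.5 log2 units and 100% of those changed by 1 or 2 were called, with 9 false calls among 186.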

Additional observations from a re-analysis of the deposited data

Results flagged for a closer look

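Of 268 strain groups of named genes, 10 held 1 sample far from the other 4 by Dixon's test, and chance gives about 1 in 20. 129P2 replicate 2 held 4 of them: Akr1e1 read 8.43, with the others at 8.97 to 9.12; Clec4g 9.15, with the others at 9.45 to 9.50; Crot 12.33, with the others at 12.56 to 12.61; and Hsd17b13 12.01, with the others at 12.37 to 12.45. This was the 129P2 array of narrowest spread. C3H replicate 3, also of narrow spread, held H2-Eb1 at 7.79, with the others at 7.49 to 7.57, and Pdgfrb at 7.57, with the others at 7.75 to 7.81.

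129P2 replicate 1 read 6.38 in Cd4, with the others at 6.68 to 6.80, and 9.77 in Igfbp3, with the others at 9.17 to 9.33. 129P2 replicate 4 read 9.89 in Gstm2, with the others at 9.59 to 9.65. 129P2 replicate 5 read 9.30 in the macrophage marker Adgre1, with the others at 7.95 to 8.25. Without that animal Adgre1 differed by -0.56 ± 0.15 (SE, limma adjusted p = 0.0321).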

How the results depend on the processing

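Against 714 calls, array weights gave 1126, array spread as a covariate 1125 and a test against a fold of 1.2 162. The genes called higher in C3H were then 490, 529 and 77, and the genes called lower in C3H 636, 596 and 85, with 8 sterol genes higher in the test against a fold of 1.2. Without single animals the count ran from 542 to 753, with 238 to 319 higher, 295 to 434 lower, 97 to 107 of at least 2-fold and 14 to 18 sterol genes. Under the other settings it ran from 569 with equal array medians to 889 with a further quantile normalization, and it was 576 without the 2 arrays of narrowest spread, a setting added after seeing the data. The share called higher, 44.7%, was 38.2% without 129P2 replicate 2, 50.9% without C3H replicate 3 and 49.2% with the further quantile normalization.

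No direction reversed among 134 named genes in the 23 alternatives; 63 kept their call in each, and 70 lost it in at least 1, most often in the test against a fold of 1.2. Scp2 lost it in 16 settings, Mgst1 in 14, Bhmt in 13, and Acot2, H2-Ob, Igfals and Srebf2 in 12. Nudt19 was called with array spread as a covariate. The cause of these changes was not tested. No paired analysis was possible because the strains hold different animals and the labels give no replicate number shared between them. The number of arrays limits small differences, and dim values allow only bounds.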
